A study of Mus musculus with 18 samples.

Results

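The genes of heme synthesis followed here were 7 enzymes of the pathway (Alas2, Alad, Uros, Urod, Cpox, Ppox and Fech) and 2 mitochondrial membrane carriers that serve it (Slc25a37 and Abcb10). They were chosen by gene symbol, and all 9 were found among the 25628 genes listed in experiment 1 and the 26903 listed in experiment 2. All 9 passed the filter on low counts in both experiments, which left 13811 and 15051 genes to test.

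Polyadenylated RNA was sequenced from leukemic erythroid cells of the bone marrow of Spi1-transgenic mice (TgSpi1), 1 line grown with erythropoietin, in which the transcription factor SPI1 (PU.1) is overproduced. All 6 groups carried a doxycycline-inducible hairpin against Spi1. Experiment 1 set cells given doxycycline for 48 h (Exp1_Dox) against cells without it (Exp1_NoDox). Experiment 2 crossed doxycycline for 48 h with entinostat, a deacetylase inhibitor given at 3 µM for 6 h, or with its vehicle DMSO, in the groups Dox_Entinostat, NoDox_Entinostat, Dox_DMSO and NoDox_DMSO. Each group had 3 libraries, called biological replicates in the labels, and no separate animals are named for them. No group carried a control hairpin, so the effect of doxycycline itself and that of losing Spi1 RNA cannot be told apart.

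Heme is built from glycine and succinyl-CoA in a chain of reactions that begins in the mitochondrion, passes through the cytosol and ends in the mitochondrion, where iron is put into the finished ring. Developing red cells make it in large amounts for hemoglobin, with an erythroid form of the first enzyme and an iron carrier of the inner mitochondrial membrane. Loss of the erythroid first enzyme is a cause of sideroblastic anemia, and defects of the later enzymes cause porphyrias.

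In mm10 (GENCODE M21) Alas2 (ENSMUSG00000025270) lies on the plus strand of chromosome X from 150547375 to 150570638, and Cpox (ENSMUSG00000022742) on the plus strand of chromosome 16 from 58670292 to 58717636. The others lie on minus strands. Alad (ENSMUSG00000028393) is on chromosome 4 from 62509169 to 62519918 and Urod (ENSMUSG00000028684) on the same chromosome from 116989965 to 116994413. Uros (ENSMUSG00000030979) is on chromosome 7 from 133686243 to 133710072, Ppox (ENSMUSG00000062729) on chromosome 1 from 171275990 to 171281186, and Fech (ENSMUSG00000024588) on chromosome 18 from 64452914 to 64490251. Of the carriers, Slc25a37 (ENSMUSG00000034248) is on chromosome 14 from 69241848 to 69285112 and Abcb10 (ENSMUSG00000031974) on chromosome 8 from 123952459 to 123983122. The counts are over annotated genes and do not separate exons, introns or UTRs.

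Library totals ran from 82.7 to 114 M counts (experiment 1) and from 43.1 to 48.9 M (experiment 2). Spi1 fell with doxycycline in every arm, by 1.73 ± 0.10 on the log2 scale in experiment 1 (SE, adjusted p = 0.000828), by 1.59 ± 0.33 in entinostat (0.00722) and by 1.29 ± 0.33 in DMSO (0.0264). All 7 erythroid markers, among them Gata1, Klf1 and Epor, averaged at least 1 CPM in each of the 6 groups, and their summed level was 2470 to 6480 CPM over the libraries. Markers of macrophages and monocytes summed to 0.962 to 1.19 CPM in Exp1_Dox and 2.34 to 2.64 CPM in Exp1_NoDox, while those of neutrophils, B cells and T cells each summed to at most 1.08 CPM in any library. Dox_DMSO replicate 1 and NoDox_Entinostat replicate 1 stood apart, with a root mean square deviation from their group's mean of 0.522 and 0.506 on the log2 scale, against 0.22 to 0.345 for the other 10 libraries of experiment 2. Calls on the 9 genes that change without these 2 libraries are given both ways.

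RefSeq windows of 300 bases around gene starts (GRCm38.p6, 250 bases before the start and 50 after) were searched for 7 of the genes, not for Fech and Slc25a37. Alad and Uros had 2 starts each, which gave 9 windows. The letters GATAA, read by GATA factors, occurred on either strand in 3 of the 9 windows, those of Alas2, Cpox and the downstream start of Uros, against 25.4% of all 32851 windows. They are shown because these genes later part company, Alas2 being higher and Cpox lower with entinostat. Positions count back from -1, the base before the start, and capitals mark matches to GATAA or its reverse complement TTATC and, in Alas2, to GAGGAA. The Alas2 stretch is chrX:150547217-150547374 (plus strand, positions -200 to -43), the Cpox stretch is chr16:58670008-58670207 (plus strand, -200 to -1) and the Uros stretch is chr7:133702551-133702580 (minus strand, -80 to -51).
Alas2: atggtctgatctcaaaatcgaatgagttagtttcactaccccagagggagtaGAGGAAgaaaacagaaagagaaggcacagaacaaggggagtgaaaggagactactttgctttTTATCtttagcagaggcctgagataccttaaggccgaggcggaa
Cpox: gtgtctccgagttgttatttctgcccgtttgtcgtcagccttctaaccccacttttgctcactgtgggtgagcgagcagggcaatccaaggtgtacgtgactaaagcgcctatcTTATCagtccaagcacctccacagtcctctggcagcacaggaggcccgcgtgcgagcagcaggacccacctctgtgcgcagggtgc
Uros: tctccctcagccTTATCagtgacagagggc

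The reverse complement of GATAA began at -86 in both Alas2 and Cpox and at -68 before the downstream Uros start. Cpox held another, beginning at position 5 after the start, beyond the stretch shown. The upstream Uros window held none, and the counts, which are per gene, cannot tell the 2 starts apart. The letters GAGGAA, the core read by SPI1, occurred in 3 of the 9 windows (Alas2 at -148, the upstream Uros start and Abcb10) against 28.3% of all windows. CCNCNCCC, the letters read by the erythroid factor KLF1, occurred in 7 of 9 windows against 49.5% of all, and CAGTGN, the loop of the iron-responsive element searched on the sense strand after the start, in 1 of 9, an Alad window, against 7.08%. The Alad windows overlap each other, so CCNCNCCC sites at -58 and -56 in one are those at -212 and -210 in the other. By gene, CCNCNCCC occurred in 6 of the 7. A match of letters does not show that a factor is bound there. For CAGTGN only the 50 bases after each RefSeq start were searched, so its absence does not show that a transcript lacks the element. The RefSeq start of Alas2 lies downstream of its GENCODE start, and the bases between them were not searched for CAGTGN. The Alad window with the match (62520014 to 62520313) lies outside the GENCODE gene.

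**Figure D1:**
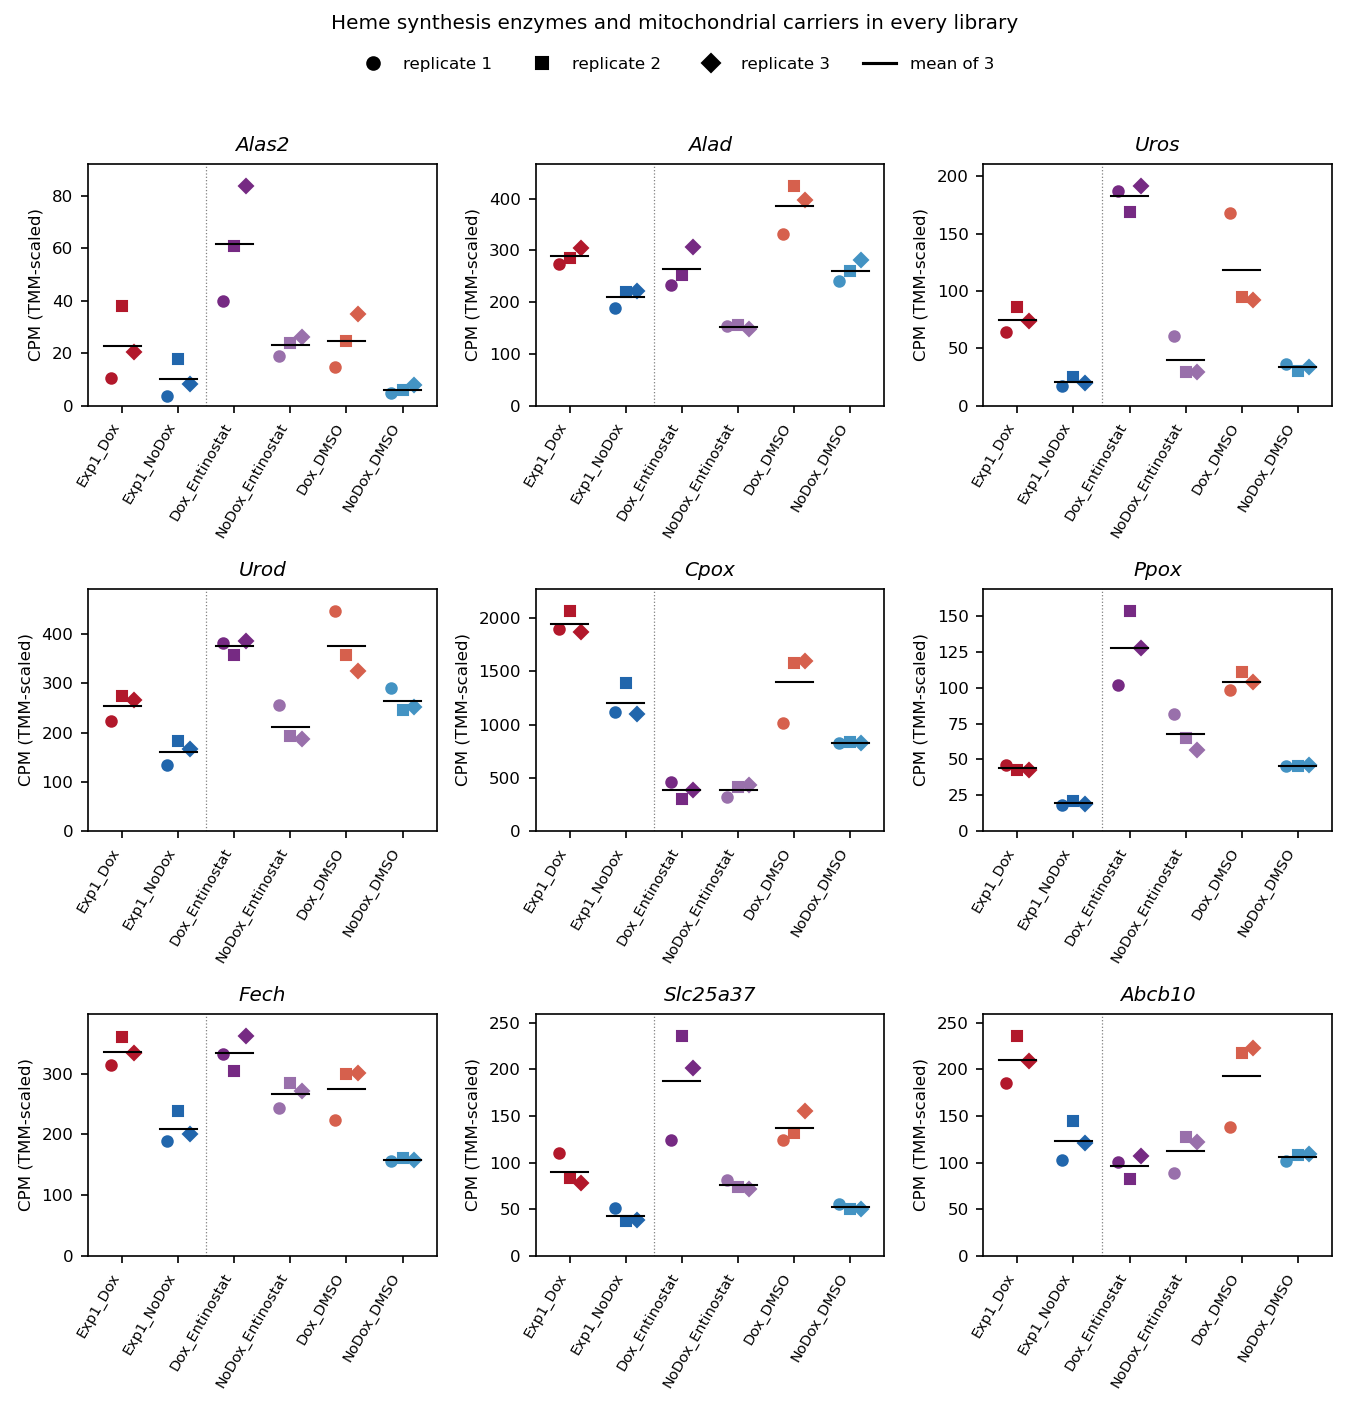
Level of each gene in every library, in CPM (counts relative to library size, TMM-scaled) on linear axes starting at 0, with marker shapes for replicate numbers and a bar for the mean of 3. Alas2 is highest in Dox_Entinostat, at 39.9 to 83.9 CPM, whereas Cpox lies at 296 to 462 CPM in all 6 entinostat libraries, under every DMSO library of experiment 2.

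The enzymes differed widely in level. Set per kb of the principal transcript, which allows levels of different genes to be compared, Cpox stood highest of the 9 in NoDox_DMSO at 267 ± 1.3 CPM per kb (SD, n = 3). Alad followed at 209 ± 16.8 and Urod at 177 ± 16.3, and these 2 ranges overlapped (192 to 226 and 165 to 195 CPM per kb). Ppox (25 ± 0.17), Abcb10 (24.7 ± 0.88) and Fech (24.1 ± 0.47) lay close together, each range overlapping that of the next, then came Uros at 19.1 ± 1.7 and Slc25a37 at 12.6 ± 0.71 CPM per kb. Alas2 was lowest at 3.03 ± 0.75 CPM per kb, below Alas1, the form of the same enzyme used in all tissues, at 5.79 ± 0.25, and the ranges of these 2 genes did not overlap.

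The order was not the same in every group. In Dox_Entinostat Urod stood highest of the 9 at 252 ± 10.7 CPM per kb, its range overlapping that of Alad, and Cpox came after Alad at 123 ± 26.8, its range overlapping that of Uros (104 ± 6.9). Alas2 there had 30.2 ± 10.8 CPM per kb against 4.43 ± 0.33 for Alas1. Urod was also first in NoDox_Entinostat (143 ± 26.1), its range overlapping that of Cpox (125 ± 19.9). In Dox_DMSO Cpox stayed first (451 ± 108), its range overlapping that of Alad. Alas2 was above Alas1 in NoDox_Entinostat (11.3 ± 1.83 against 5.3 ± 0.44) and in Dox_DMSO (12.1 ± 4.91 against 6.12 ± 0.67). The order rests on annotated transcript lengths, since the transcripts used for counting are not given in the sources used here.

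**Figure D2:**
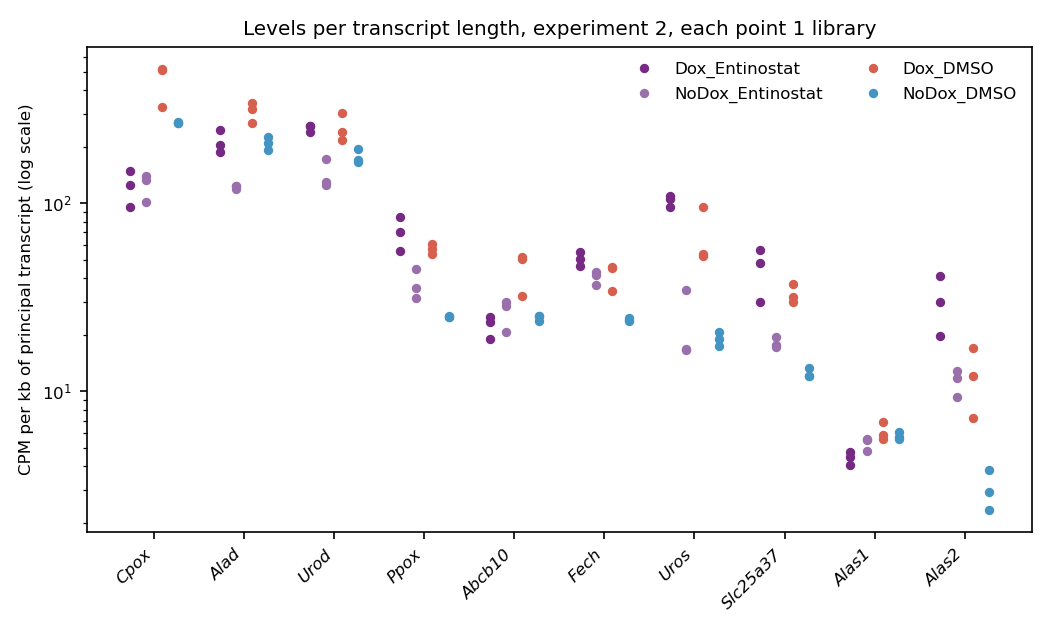
Level per kb of the GENCODE principal transcript (CPM per kb, log scale) in the 12 libraries of experiment 2, genes ordered by their mean in NoDox_DMSO, with Alas1 added; each point is 1 library. Alas2 lies below Alas1 in NoDox_DMSO and above it in the other 3 groups.

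The first comparison asked how the genes respond when Spi1 RNA is lowered. In experiment 1, 8 of the 9 genes rose with doxycycline and 0 fell, where 5.26% of all genes tested rose and 8.36% fell. No overlap between the groups was seen for 8 of the 9 genes and for 32.1% of all genes (13.6% were called in either direction). The median log2 fold change was 0.77 over the 9 genes and 0.02 over all genes. The largest value was that of Uros (3.59-fold) and the smallest that of Alad (1.37-fold).

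Alas2, which makes 5-aminolevulinate in the first and rate-limiting step in erythroid cells, had 10.4, 37.9 and 20.4 CPM in Exp1_Dox, against 3.87, 18 and 8.31 CPM in Exp1_NoDox. Replicate 2 was the highest and replicate 1 the lowest in both groups, and the ranges overlapped. The log2 fold change of 1.18 ± 0.66 did not pass the test (adjusted p = 0.336). Same-number libraries nevertheless differed by 2.69, 2.11 and 2.45 times, and once the replicate number entered as a block Alas2 rose by 1.24 ± 0.07 (adjusted p = 1.17e-06), as did all 9 genes. In that fit 50.9% of all genes were called, 26.1% upward and 24.7% downward. Apex2, which with Mir3620 shares 15.5% of the annotated Alas2 exon bases on the other strand, averaged 18.4 CPM in Exp1_Dox and 14.5 CPM in Exp1_NoDox. The library kit does not mark strand, so reads of such a pair cannot be told apart.

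The enzymes of the cytosol rose by unequal amounts. Alad, which joins 2 molecules of 5-aminolevulinate into porphobilinogen, had 274, 286 and 305 CPM in Exp1_Dox and 189, 220 and 222 CPM in Exp1_NoDox (log2 fold change 0.46 ± 0.09, adjusted p = 0.023). Uros, which closes the ring as uroporphyrinogen III, had 64.4, 85.8 and 73.7 CPM in Exp1_Dox and 16.9, 25.3 and 20 CPM in Exp1_NoDox (1.85 ± 0.18, adjusted p = 0.00216). Every Exp1_Dox library lay above every Exp1_NoDox library for both. The Alad call was lost without Exp1_NoDox replicate 2 (0.0516) or 3 (0.0827), without Exp1_Dox replicate 2 (0.0768) or 3 (0.0927) and with no filter on low counts (0.0989). Urod, which trims the side chains to coproporphyrinogen III, had 224, 275 and 266 CPM in Exp1_Dox and 134, 183 and 166 CPM in Exp1_NoDox (0.66 ± 0.14, adjusted p = 0.0278), again without overlap.

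The last enzymes sit in the mitochondrion. Cpox, the oxidase of coproporphyrinogen, had 1900, 2070 and 1870 CPM in Exp1_Dox and 1120, 1390 and 1100 CPM in Exp1_NoDox (log2 fold change 0.69 ± 0.12, adjusted p = 0.0127). Ppox, which makes protoporphyrin IX, had 46.3, 42.9 and 42.9 CPM in Exp1_Dox and 18.3, 21 and 18.9 CPM in Exp1_NoDox (1.18 ± 0.09, adjusted p = 0.00119). Fech, the ferrochelatase that inserts iron, had 314, 360 and 334 CPM in Exp1_Dox and 189, 238 and 200 CPM in Exp1_NoDox (0.68 ± 0.11, adjusted p = 0.011). The libraries of the groups were fully apart for these 3 genes. B4galt3, which shares 17.5% of the annotated Ppox exon bases on the other strand, averaged 51.1 CPM in Exp1_Dox and 34.1 CPM in Exp1_NoDox.

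Both carriers rose in experiment 1. Slc25a37, mitoferrin-1, which brings iron into the mitochondrion of erythroid cells, had 110, 83.2 and 77.8 CPM in Exp1_Dox and 51.4, 38.1 and 38.8 CPM in Exp1_NoDox (log2 fold change 1.08 ± 0.18, adjusted p = 0.0125). Abcb10, an inner membrane transporter known in mouse erythroid cells to stabilise mitoferrin-1 and to be raised by GATA1, had 185, 236 and 209 CPM in Exp1_Dox and 103, 145 and 121 CPM in Exp1_NoDox (0.77 ± 0.15, adjusted p = 0.0223). Neither gene's groups overlapped. The summed erythroid markers were also higher in Exp1_Dox (5970 to 6480 CPM) than in Exp1_NoDox (4060 to 4430 CPM), and in bulk RNA a change in the share of more mature cells and a change per cell cannot be told apart. The number of rising genes was 2 (Uros and Ppox) without Exp1_NoDox replicate 3, with adjusted p of 0.0694 to 0.11 for the other 6, where 1.39% of all genes rose. It was 4 without Exp1_Dox replicate 2 (2.57% of all genes) and 5 without Exp1_Dox replicate 3 (2.2%). These fits carried no replicate block. With the block and no library left out, every gene followed here rose, as did 26.1% of all genes.

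**Figure D3:**
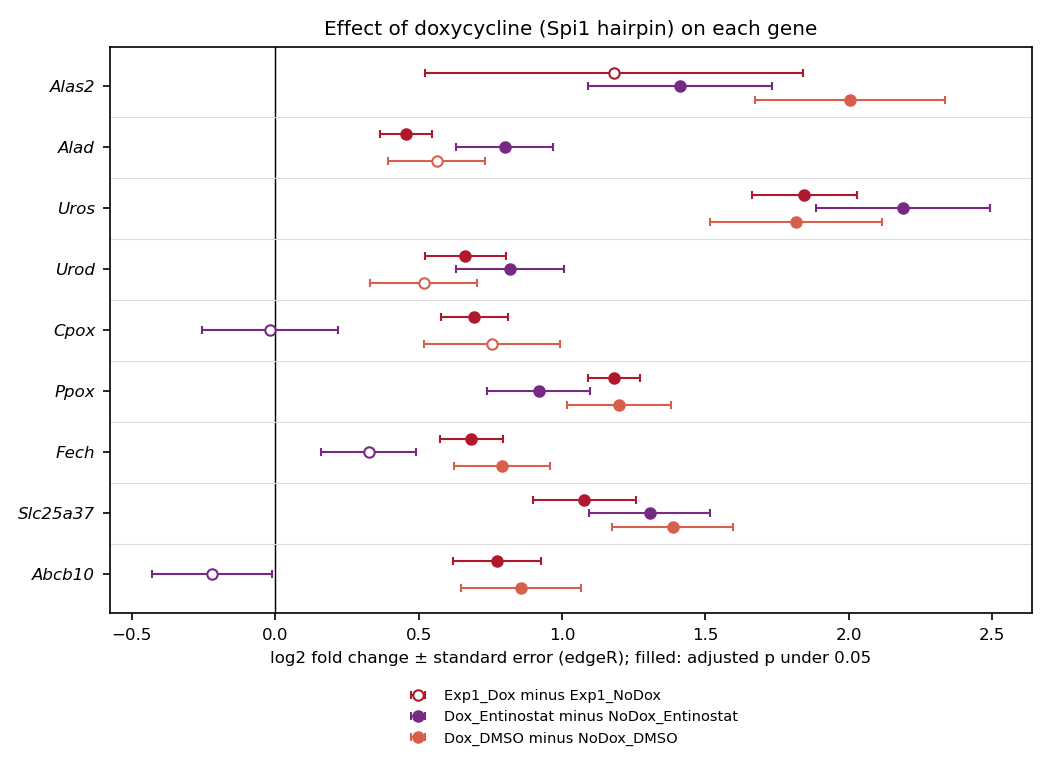
Log2 fold change with doxycycline for each gene (edgeR, bars are standard errors, filled points have an adjusted p under 0.05) in experiment 1, in entinostat and in DMSO. All 9 genes lie above 0 in experiment 1 and in DMSO, and in entinostat Cpox and Abcb10 lie at -0.02 and -0.22.

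In experiment 2 the same question was asked in entinostat and in DMSO. In entinostat 6 of the 9 genes rose with doxycycline and 0 fell, where 8.96% of all genes rose and 15.1% fell, (24% in either direction), and 7 of 9 genes and 37.6% of all genes had no overlap between groups. In DMSO 6 of the 9 rose and 0 fell, where 3.77% of all genes rose and 5.53% fell (9.31% in either direction). Here the groups were apart for 9 of 9 genes and 25.8% of all genes. The median log2 fold change of the 9 genes was 0.82 in entinostat and 0.86 in DMSO, against -0.08 and 0.05 over all genes. Without the 2 libraries that stood apart, 6 genes rose and 1 fell in entinostat (26.1% and 35.7% of all genes), and 9 rose and 0 fell in DMSO (17.4% and 13.9% of all genes).

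With entinostat the 9 genes did not all move one way. In the presence of doxycycline 1 of the 9 rose with entinostat and 3 fell, where 33.9% of all genes rose and 29.9% fell (63.7% in either direction), and the groups were apart for 6 of 9 genes and 66% of all genes. Without doxycycline 3 rose and 2 fell, where 30.3% of all genes rose and 16.9% fell (47.2% in either direction), with no overlap for 6 of 9 genes and 60.2% of all genes. Apart from the smaller share that rose in the presence of doxycycline, these shares lay near those of all genes, so the counts are not a result about the 9 genes. Under both treatments against neither, 6 rose and 1 fell, where 35.5% of all genes rose and 29.4% fell (64.9% in either direction), and groups were apart for 7 of 9 genes and 77.9% of all genes. The median log2 fold changes of the 9 genes in these comparisons were 0.28, 0.25 and 1.07, against 0.14, 0.07 and 0.16 over all genes. These comparisons share groups with one another and with the doxycycline comparisons. Without the 2 libraries that stood apart, 2 rose and 3 fell with entinostat in the presence of doxycycline (43.1% and 34.7% of all genes), and 4 rose and 3 fell in its absence (36.2% and 27.7%).

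Marker levels differed between the groups too. The erythroid markers, which include Gata1 and Klf1, summed to 2470 to 4160 CPM in Dox_Entinostat, 2530 to 2900 CPM in NoDox_Entinostat, 4710 to 5830 CPM in Dox_DMSO and 3370 to 3870 CPM in NoDox_DMSO. The megakaryocyte markers summed to 69.4 to 130 CPM in Dox_Entinostat, 81.8 to 124 CPM in NoDox_Entinostat, 30.7 to 45.9 CPM in Dox_DMSO and 30.9 to 67.1 CPM in NoDox_DMSO. The macrophage and monocyte markers in the table (3 of 5) summed to 2.17 to 3.55 CPM in Dox_Entinostat, 5.44 to 11.2 CPM in NoDox_Entinostat, 1.64 to 2.46 CPM in Dox_DMSO and 2.73 to 3.08 CPM in NoDox_DMSO. The 2 of 4 stromal and endothelial markers in the table summed to 1.01 to 2.91 CPM in Dox_Entinostat, 1.74 to 2.21 CPM in NoDox_Entinostat, 0.0432 to 0.0646 CPM in Dox_DMSO and 0.109 to 0.18 CPM in NoDox_DMSO. All 4 lists thus differed between entinostat and DMSO in at least 1 arm without overlap, and their part in the values of the 9 genes was not tested.

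**Figure D4:**
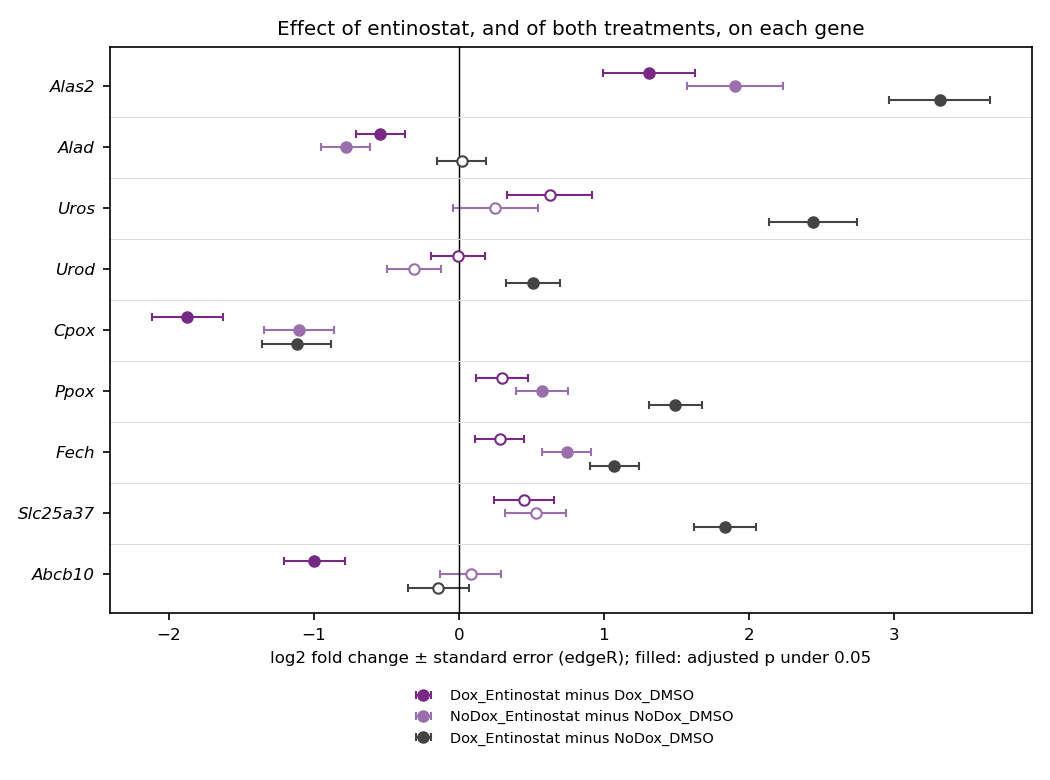
Log2 fold change of each gene with entinostat in the presence and in the absence of doxycycline, and with both treatments against neither (edgeR, bars are standard errors, filled points have an adjusted p under 0.05). Alas2 is above 0 in all 3 comparisons, at 1.31, 1.91 and 3.32, and Cpox is below 0 in all 3, at -1.87, -1.10 and -1.12.

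Alas2 rose with each treatment. It had 39.9, 60.7 and 83.9 CPM in Dox_Entinostat, 19, 24 and 26.3 CPM in NoDox_Entinostat, 14.8, 24.6 and 34.8 CPM in Dox_DMSO and 4.76, 5.95 and 7.79 CPM in NoDox_DMSO. The NoDox_DMSO libraries were all below, and the Dox_Entinostat libraries all above, those of the other 3 groups, while NoDox_Entinostat and Dox_DMSO overlapped. With doxycycline it rose by 1.41 ± 0.32 on the log2 scale in entinostat (adjusted p = 0.0109) and by 2.0 ± 0.33 in DMSO (0.00156), and the call in entinostat was lost without Dox_Entinostat replicate 3 (1.12, adjusted p = 0.06). With entinostat it rose by 1.31 ± 0.32 in the presence of doxycycline (0.00332) and by 1.91 ± 0.33 in its absence (0.000463). Of all genes tested, 74.3% had a lower fold change than Alas2 with entinostat in the presence of doxycycline and 82.4% in its absence. Larger rises with entinostat were thus common among all genes. With both treatments against neither it rose 9.96-fold (3.32 ± 0.35, adjusted p = 7.41e-06). The overlapping Apex2 averaged 20.7 CPM in Dox_Entinostat, 20.5 CPM in NoDox_Entinostat, 19.6 CPM in Dox_DMSO and 16.3 CPM in NoDox_DMSO, and its part in the Alas2 values was not tested.

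Alad rose with doxycycline in entinostat and fell with entinostat. It had 234, 253 and 307 CPM in Dox_Entinostat, 154, 155 and 148 CPM in NoDox_Entinostat, 332, 425 and 398 CPM in Dox_DMSO and 240, 261 and 282 CPM in NoDox_DMSO. The NoDox_Entinostat libraries were the lowest of the 12 and the Dox_DMSO libraries the highest. Doxycycline raised Alad by 0.80 ± 0.17 in entinostat (adjusted p = 0.00771, and 0.0507 without Dox_Entinostat replicate 3). In DMSO the value was 0.56 ± 0.17 (adjusted p = 0.057), and it passed with the replicate block (0.0277) and without either library that stood apart (0.0259 without Dox_DMSO replicate 1, 0.0454 without NoDox_Entinostat replicate 1) or without both (0.66, adjusted p = 0.00148). With entinostat Alad fell by 0.54 ± 0.17 in the presence of doxycycline (adjusted p = 0.0135, and 0.058 without Dox_DMSO replicate 2) and by 0.78 ± 0.17 in its absence (0.00221). Both treatments against neither gave 0.02 ± 0.17 (adjusted p = 0.921), with overlapping groups.

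Uros showed the largest doxycycline effect of the 9 genes in entinostat. It had 187, 169 and 192 CPM in Dox_Entinostat, 61.1, 29.7 and 29.3 CPM in NoDox_Entinostat, 168, 94.9 and 92.2 CPM in Dox_DMSO and 36.6, 30.6 and 33.6 CPM in NoDox_DMSO. The first NoDox_Entinostat and the first Dox_DMSO library, which stood apart over all genes, were each the highest of their group. Doxycycline raised Uros by 2.19 ± 0.30 in entinostat (adjusted p = 0.000691) and by 1.82 ± 0.30 in DMSO (0.00154). With entinostat the value was 0.63 ± 0.29 in the presence of doxycycline (adjusted p = 0.075) and 0.25 ± 0.29 in its absence (0.512). Without the 2 libraries Uros rose with entinostat in the presence of doxycycline by 0.96 ± 0.11 (adjusted p = 1.92e-06), and in its absence the value was -0.19 ± 0.11 (0.127). The value in the presence of doxycycline also passed without Dox_DMSO replicate 1 (0.00678) or NoDox_Entinostat replicate 1 (0.0164) alone, with the replicate block (0.00833), with library-size scaling (0.0203) and with the 2 groups alone (0.0354). It rose 5.44-fold with both treatments against neither (2.44 ± 0.31, adjusted p = 2.93e-05).

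Urod rose with doxycycline in entinostat. It had 383, 357 and 386 CPM in Dox_Entinostat, 257, 194 and 186 CPM in NoDox_Entinostat, 448, 357 and 325 CPM in Dox_DMSO and 291, 246 and 253 CPM in NoDox_DMSO. The doxycycline libraries lay above the libraries without it in either arm, and the entinostat and DMSO libraries overlapped. Doxycycline gave 0.82 ± 0.19 in entinostat (adjusted p = 0.0113) and 0.52 ± 0.19 in DMSO (0.121), where it passed with the replicate block (0.0454) and without the 2 libraries that stood apart (0.37, adjusted p = 0.0223). The entinostat call was lost without Dox_Entinostat replicate 3 (0.0507), NoDox_Entinostat replicate 2 (0.0639) or NoDox_Entinostat replicate 3 (0.0735). Entinostat gave -0.01 ± 0.19 in the presence of doxycycline (adjusted p = 0.981) and -0.31 ± 0.19 in its absence (0.199), where Urod fell by 0.47 ± 0.12 without the 2 libraries (0.00285). Both treatments against neither raised it by 0.51 ± 0.19 (adjusted p = 0.0289), a call lost without Dox_Entinostat replicate 1 (0.0608) or 3 (0.0808) or NoDox_DMSO replicate 2 (0.11) or 3 (0.0969).

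Cpox fell with entinostat. It had 462, 296 and 386 CPM in Dox_Entinostat, 315, 413 and 429 CPM in NoDox_Entinostat, 1010, 1580 and 1600 CPM in Dox_DMSO and 827, 832 and 824 CPM in NoDox_DMSO. All 6 entinostat libraries lay below all 6 DMSO libraries, the entinostat groups overlapped each other, and in DMSO the first doxycycline library was the one nearest to NoDox_DMSO. Entinostat lowered Cpox to 0.273 times its Dox_DMSO level in Dox_Entinostat (log2 fold change -1.87 ± 0.24, adjusted p = 4.57e-05). In the absence of doxycycline the value was -1.10 ± 0.24 (adjusted p = 0.0022), and with both treatments against neither it was -1.12 ± 0.24 (0.00138). Of all genes tested, 1.8% had a lower fold change than Cpox with entinostat in the presence of doxycycline and 3.86% in its absence. Doxycycline gave -0.02 ± 0.24 in entinostat (adjusted p = 0.962) and 0.76 ± 0.24 in DMSO (0.07), where Cpox rose without Dox_DMSO replicate 1 (0.94, adjusted p = 0.0135) or NoDox_Entinostat replicate 1 (0.76, 0.0436) or without both (0.94, 0.000465).

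Ppox and Fech, the last enzymes, rose with doxycycline in DMSO and with entinostat in the absence of doxycycline. Ppox had 102, 154 and 128 CPM in Dox_Entinostat, 81.8, 64.9 and 56.9 CPM in NoDox_Entinostat, 98.3, 111 and 104 CPM in Dox_DMSO and 45.2, 45.6 and 45.8 CPM in NoDox_DMSO. Every other library lay above the NoDox_DMSO libraries. Doxycycline raised it by 0.92 ± 0.18 in entinostat (adjusted p = 0.00526) and by 1.20 ± 0.18 in DMSO (0.000822). Entinostat gave 0.30 ± 0.18 in the presence of doxycycline (adjusted p = 0.162) and raised Ppox by 0.58 ± 0.18 in its absence (0.0184). That call was lost without any of the NoDox_DMSO libraries (0.0561 to 0.0661) or without NoDox_Entinostat replicate 1 (0.0659). Both treatments against neither gave a rise of 1.49 ± 0.18 (2.47e-05). The overlapping B4galt3 averaged 45 CPM in Dox_Entinostat, 47.2 CPM in NoDox_Entinostat, 43 CPM in Dox_DMSO and 32 CPM in NoDox_DMSO, and its part in the Ppox values was not tested.

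Fech had 333, 305 and 362 CPM in Dox_Entinostat, 243, 284 and 272 CPM in NoDox_Entinostat, 224, 299 and 301 CPM in Dox_DMSO and 156, 162 and 158 CPM in NoDox_DMSO. The NoDox_DMSO libraries were the lowest of the 12, and the Dox_Entinostat libraries the highest. Doxycycline gave 0.33 ± 0.17 in entinostat (adjusted p = 0.156) and raised Fech by 0.79 ± 0.17 in DMSO (0.00871). The DMSO call was lost, with adjusted p of 0.0501 to 0.0549, without NoDox_DMSO replicate 1 or 3 or without Dox_DMSO replicate 2 or 3. Entinostat gave 0.28 ± 0.17 in the presence of doxycycline (adjusted p = 0.157) and a rise of 0.75 ± 0.17 in its absence (0.00279). Both treatments against neither raised Fech 2.1-fold (1.07 ± 0.17, adjusted p = 0.000162).

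The 2 carriers did not follow the same pattern. Slc25a37 had 124, 236 and 202 CPM in Dox_Entinostat, 81.3, 73.8 and 71.8 CPM in NoDox_Entinostat, 124, 132 and 155 CPM in Dox_DMSO and 55.8, 50.7 and 50.7 CPM in NoDox_DMSO. All doxycycline libraries lay above all libraries without it, and the first Dox_Entinostat library lay at the level of the lowest Dox_DMSO library. Doxycycline raised Slc25a37 by 1.31 ± 0.21 in entinostat (adjusted p = 0.00184) and by 1.39 ± 0.21 in DMSO (0.000872). Entinostat gave 0.45 ± 0.21 in the presence of doxycycline (0.075, and 0.0045 without Dox_Entinostat replicate 1) and 0.53 ± 0.21 in its absence (0.0528). The value without doxycycline passed in 10 of 21 alternatives, among them the fit without the 2 libraries that stood apart (0.47, adjusted p = 0.0469). Both treatments against neither raised it 3.57-fold (1.84 ± 0.22, adjusted p = 1.74e-05).

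Abcb10 had 101, 82.1 and 107 CPM in Dox_Entinostat, 88.7, 128 and 122 CPM in NoDox_Entinostat, 138, 218 and 223 CPM in Dox_DMSO and 102, 108 and 109 CPM in NoDox_DMSO. The Dox_DMSO libraries were the highest of the 12, and the other 3 groups overlapped. Doxycycline gave -0.22 ± 0.21 in entinostat (adjusted p = 0.424) and raised Abcb10 by 0.86 ± 0.21 in DMSO (0.0204). In entinostat it fell by 0.37 ± 0.12 without the 2 libraries that stood apart (0.0124). The DMSO call was lost without any NoDox_DMSO library or without Dox_DMSO replicate 2 or 3 (adjusted p of 0.0762 to 0.0976). Entinostat lowered Abcb10 in the presence of doxycycline (-1.0 ± 0.21, adjusted p = 0.00129) and gave 0.08 ± 0.21 in its absence (0.781). Both treatments against neither gave -0.14 ± 0.21 (0.568).

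Whether entinostat altered the doxycycline effect was tested by subtracting the effect in DMSO from the effect in entinostat. With all 12 libraries 0 of the 9 genes passed in edgeR, where 0.272% of all genes did (0.166% upward and 0.106% downward). Abcb10 and Cpox had an unadjusted p under 0.05, but not an adjusted one, at a difference of -1.08 ± 0.30 (adjusted p = 0.229) and -0.77 ± 0.34 (adjusted p = 0.314). DESeq2 called 1 of the 9, in the negative direction, and 220 genes in all, and limma-voom called 0 of the 9. Abcb10 passed without Dox_DMSO replicate 1 (-1.28, adjusted p = 0.0243) or without NoDox_Entinostat replicate 1 (-1.23, 0.0316), and Cpox passed without Dox_DMSO replicate 1 (-0.97, adjusted p = 0.046). Many other genes passed in the same fits, 2637 of 15614 without Dox_DMSO replicate 1 and 3061 of 15517 without NoDox_Entinostat replicate 1. With all 12 libraries 41 of 15051 genes had passed.

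Without both of these libraries 51.5% of all genes passed, 21.5% upward and 30% downward, and 6 of the 9 genes were among them. The doxycycline effect was more positive in entinostat for Uros (1.15 ± 0.15, adjusted p = 2.43e-05) and Urod (0.60 ± 0.16, 0.00669). It was lower in entinostat for Abcb10 (-1.42 ± 0.16, adjusted p = 8.78e-06), Cpox (-1.09 ± 0.22, 0.000869), Fech (-0.66 ± 0.15, 0.00232) and Alas2 (-0.98 ± 0.36, 0.0351). In that fit Dox_DMSO and NoDox_Entinostat have 2 libraries each, which were left out for their distance from their groups. The difference for these 6 genes therefore depends on whether 2 libraries are kept, and the cause of their distance was not tested.

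**Figure D5:**
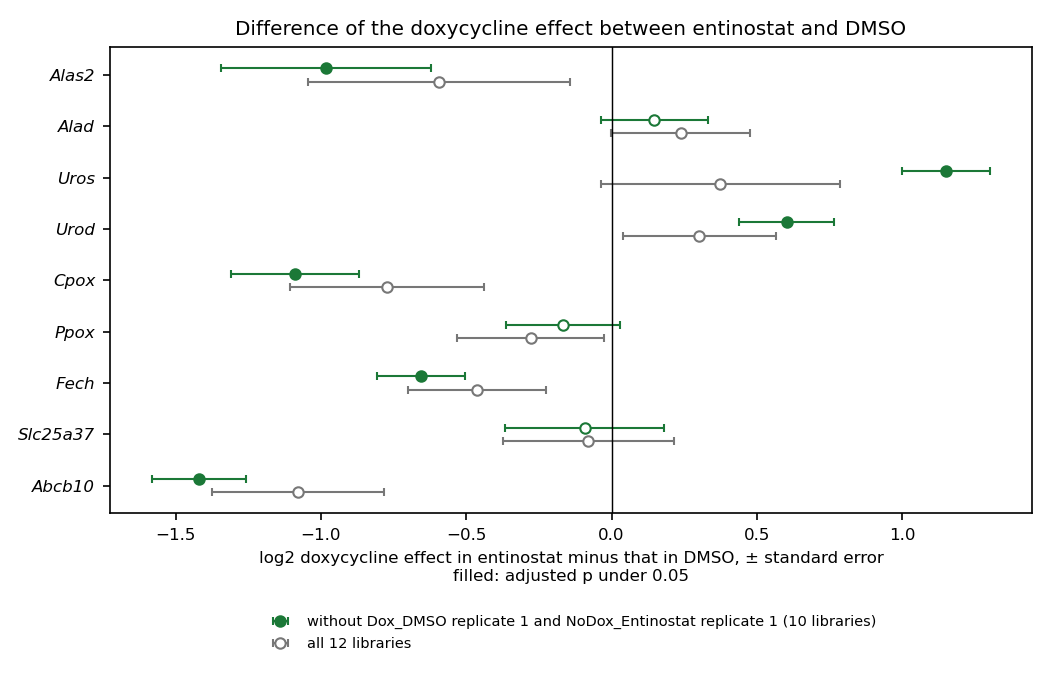
Difference of the doxycycline effects (entinostat arm less DMSO arm) for each gene (log2, bars are standard errors, filled points have an adjusted p under 0.05), without Dox_DMSO replicate 1 and NoDox_Entinostat replicate 1 and with all 12 libraries. No point is filled with all 12 libraries, and 6 are filled without the 2, from -1.42 for Abcb10 to 1.15 for Uros.

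Other genes of heme synthesis and porphyrin transport were read from the same fits. Of 10 such genes 1 rose and 0 fell with doxycycline in experiment 1, 3 and 0 in entinostat and 1 and 0 in DMSO. Over all genes the shares that rose and fell were 5.26% and 8.36% in experiment 1, 8.96% and 15.1% in entinostat and 3.77% and 5.53% in DMSO. Fam210b, a mitochondrial protein known to aid iron supply to heme synthesis in erythroid cells, rose by 1.03 ± 0.20 on the log2 scale in experiment 1 (adjusted p = 0.019), by 0.82 ± 0.20 in entinostat (0.0154) and by 1.49 ± 0.21 in DMSO (0.000384). With entinostat 1 of the 10 genes rose and 4 fell in the presence of doxycycline, and 1 rose and 3 fell in its absence. Of all genes 33.9% rose and 29.9% fell in the presence of doxycycline, and 30.3% and 16.9% in its absence, so the falling share of the list was not far above that of all genes. The glycine carrier Slc25a38 fell by 0.77 ± 0.16 and 1.04 ± 0.16 in these comparisons. Clpx, a mitochondrial unfoldase known to act on the first enzyme, fell by 1.23 ± 0.17 and 0.71 ± 0.17.

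Iron-sulfur cluster assembly, on which ferrochelatase depends, had 14 genes tested. With doxycycline 1 rose and 1 fell in experiment 1, 6 rose and 1 fell in entinostat and 1 rose and 0 fell in DMSO. The shares of all genes that rose and fell with doxycycline were 5.26% and 8.36% in experiment 1, 8.96% and 15.1% in entinostat and 3.77% and 5.53% in DMSO. Isca1 rose in all 3, by 0.50 ± 0.13, 0.52 ± 0.15 and 0.56 ± 0.15. With entinostat 2 rose and 8 fell in the presence of doxycycline and 0 rose and 3 fell in its absence (all genes, 33.9% and 29.9%, and 30.3% and 16.9%), with Isca1 among them at a log2 fold change of -1.03 ± 0.15 and -0.99 ± 0.15. Of 10 genes for heme export, breakdown and heme a or c synthesis, 1 rose and 0 fell with doxycycline in experiment 1 and likewise in DMSO, and 3 rose and 1 fell in entinostat. Abcg2, an exporter of porphyrins, rose by 1.21 ± 0.20 in experiment 1, 0.57 ± 0.16 in entinostat and 1.28 ± 0.16 in DMSO. With entinostat 1 of these 10 rose and 4 fell both in the presence (33.9% and 29.9% of all genes) and in the absence of doxycycline (30.3% and 16.9%). The heme exporter Flvcr1 fell by 1.81 ± 0.18 and 1.27 ± 0.17 there.

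Of the heme and iron sensors and regulators of the pathway, 1 of 10 rose and 2 fell with doxycycline in experiment 1, 0 of 11 rose and 1 fell in entinostat, and 0 rose and 0 fell in DMSO. The shares of all genes there were 5.26% and 8.36%, 8.96% and 15.1%, and 3.77% and 5.53%. With entinostat 1 of 11 rose and 9 fell in the presence of doxycycline (33.9% and 29.9% of all genes), and 1 rose and 5 fell in its absence (30.3% and 16.9%). The median log2 fold change of the list was -0.82 and -0.45 in these comparisons, against 0.14 and 0.07 over all genes. The erythroid transcription factors Klf1 (-2.26 ± 0.24 and -1.33 ± 0.23) and Gata1 (-1.24 ± 0.18 and -0.92 ± 0.18) were among those that fell. Klf1 averaged 34 ± 3.9 CPM in Dox_Entinostat, 44.1 ± 11.1 CPM in NoDox_Entinostat, 163 ± 46.9 CPM in Dox_DMSO and 110 ± 3.0 CPM in NoDox_DMSO (SD, n = 3 each). Cpox was lower in the same entinostat groups and Alas2 higher, and whether either value follows these factors was not tested. The riser was Ppargc1a, listed at 0 in all DMSO libraries and at 0.839 ± 0.613 and 0.79 ± 0.336 CPM in Dox_Entinostat and NoDox_Entinostat.

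The genes most like the mean of the 9 across the 6 group means were taken by the root mean square difference of centred log2 CPM, among 8597 genes of at least 5 CPM. They were Tspo2 (0.0355), Xaf1 (0.0943), Ppp6r2 (0.0997), Chpt1 (0.101) and Tmem107 (0.108). Tspo2, a membrane protein of erythroid cells, stood at 0.52 in Exp1_Dox and -0.52 in Exp1_NoDox around the mean of that experiment, and at 0.48, -0.43, 0.49 and -0.53 in Dox_Entinostat, NoDox_Entinostat, Dox_DMSO and NoDox_DMSO. Those most like Alas2, among 8605 genes, were Cmpk2 (0.173), Gm11837 (0.195), 4933431E20Rik (0.206), Ltbp4 (0.239) and Ctnnal1 (0.256). These are descriptions over 6 means and carry no test.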

How the data were processed

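Counts per gene were deposited by the authors in 1 table for each of 2 experiments, unnormalised. The build mm10 and the tools STAR, DESeq2 and bcl2fastq 2.17.1.14 are named in the submitters' processing notes; the counter and annotation are not given in the sources used here. Libraries came from polyadenylated RNA with a TruSeq RNA v2 kit, which does not mark strand, per the labels' protocols. The experiment 1 table has no value under 1, and 3543 genes stand at 1 in every library.

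Each experiment was fitted alone with edgeR 4.0.16 in R 4.3.3 (quasi-likelihood, group means, TMM, filterByExpr), with 6 and 12 libraries. Tests were two-sided and adjusted by Benjamini-Hochberg over all genes, with a threshold of 0.05; "rose" and "fell" mean past it. CPM is TMM-scaled. Errors are standard errors for fold changes and SD for levels. Counts without molecular identifiers are not independent molecules. The fit was tested on simulated data. Coordinates and lengths came from GENCODE M21 (mm10), promoter windows from RefSeq (GRCm38.p6).

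The members, lists and alternatives were chosen with earlier results of these data known. From each list, up to 4 called genes per comparison with the smallest adjusted p could be named; Alas1 and the partners on the other strand were added after their values were seen. 1 gene of a list was fitted with the rest but is not reported here. Alternatives were RLE or library-size scaling, other filters, DESeq2 1.42.0, limma-voom (limma 3.58.1), the replicate block, the groups compared alone, counts minus 1 in experiment 1, and left-out libraries.

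The main calls come from fits without pairing, also where the numbers pair, and the replicate block was an alternative only. Replicate numbers were regarded as pairs where every same-number correlation of deviations passed 0.1. These correlations were 0.313 to 0.829 in experiment 1 (other numbers at most 0.259) and 0.102 to 0.334 for doxycycline in DMSO (at most 0.214). The other comparisons did not meet the limit.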

Additional observations from a re-analysis of the deposited data

How the results depend on the processing

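Experiment 1 had 1881 genes called, and 1103 with 3 of the 9 members rising under no filter on low counts; with the replicate block 7027 genes were called. Leaving out 1 library at a time gave 2 to 8 rising members and 684 to 1508 genes. For doxycycline in DMSO (1401 genes) it gave 4 to 8 members and 862 to 1741 genes, and in entinostat 3 to 6 members and 994 to 7583 genes. For entinostat with doxycycline it gave 1 to 2 rising and 2 to 3 falling members (8315 to 10947 genes), without doxycycline 2 to 4 and 2 (6009 to 8193), and for both treatments against neither 5 to 6 and 1 (8561 to 10803). For the interaction it gave 0 rising and 0 to 2 falling members and 9 to 3061 genes.

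Without both libraries that stood apart, 4846 genes passed for doxycycline in DMSO, 9569 in entinostat (1 member fell) and 7972 for the interaction (2 members up, 4 down; 41 genes with all libraries). The interaction had 206 genes under no filter, 220 with DESeq2 (1 member down) and 177 with the block, which gave 6115 for doxycycline in entinostat. The members rising with entinostat in the presence of doxycycline were 3 when only library size was scaled. They were 3 when genes needed 1 CPM in 3 libraries, and 2 with the block, with the 2 groups alone or without both libraries. In the main fit 1 member and 33.9% of all genes rose, and without both libraries 43.1% of all genes did. Shares of all genes under the other settings are not given here, so these counts are not a result about the members. Scaling by library size put the all-gene median for entinostat without doxycycline at 0.316 (log2), against 0.0692 with TMM. It lost the fall of Alad with entinostat in the presence of doxycycline (-0.41, adjusted p = 0.0647), as did the 2 groups alone (0.164).

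Sign changes were those of values near 0 that had passed no test. Cpox with doxycycline in entinostat was 0.018 with RLE, 0.025 with the 1 CPM filter, 0.007 with DESeq2 and 0.027 with its groups alone, and -0.183 to 0.136 with 1 library left out. Urod with entinostat in the presence of doxycycline was 0.017 with RLE, 0.14 with library size, 0.101 with the 1 CPM filter, 0.006 with DESeq2, 0.004 with limma-voom, 0.01 with the replicate block, 0.129 without both libraries and 0.116 with its groups alone, and -0.113 to 0.125 with 1 left out. Alad under both treatments was -0.085 with no filter and -0.106 to 0.091 with 1 left out. With entinostat in the absence of doxycycline, Uros was -0.193 without both libraries and -0.192 to 0.431 with 1 left out, and Abcb10 -0.023 to 0.225. The Slc25a37 interaction was -0.282 to 0.14. The cause of these changes was not tested.

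Counts at this depth put no member near the filter, and 3 libraries a group limit the precision.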
